A study of Mus musculus with 35 samples.

Results

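Cathepsins are proteases that work mainly in the acid interior of lysosomes, where they degrade proteins taken up by endocytosis, phagocytosis and autophagy. Most are cysteine proteases of the papain type (Ctsb, Ctsc, Ctsf, Ctsh, Ctsl, Ctss and Ctsz), whereas Ctsd and Ctse are aspartic proteases and Ctsa is a serine carboxypeptidase. In macrophages the same enzymes also trim the invariant chain that occupies the groove of MHC class II molecules, a step for which Ctss is best known in antigen presenting cells. Kupffer cells (KCs), the resident macrophages of the liver sinusoids, clear particles, lipoproteins and dying cells from blood and carry a large lysosomal compartment.

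These 10 cathepsin symbols were taken by name from a table of 54735 gene symbols. No measured value entered the rule, but the list was drawn up with earlier results of these data known. All 10 were among the 13421 genes that passed the filter on low counts (over 1 CPM, that is, count per 1000000 counts, in at least 5 samples), but Ctse passed it only through the CLEC4F- macrophages described below (0 of the other 29 samples were over 1 CPM), so that its levels are given there without a test.

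The data were bulk RNA-seq counts from macrophages sorted from livers of male C57Bl/6J mice fed a Western diet (WD), rich in fat and cholesterol and given with sugared drinking water, or a standard diet (SD), a model of metabolic associated fatty liver disease. Resident KCs (ResKCs, CLEC4F+TIM4+) came from SD-fed mice after 12 weeks (n = 7) and 24 weeks (n = 6) and from WD-fed mice after 12 weeks (n = 5) and 24 weeks (n = 6). Monocyte-derived KCs (moKCs, CLEC4F+TIM4-, n = 5) and CLEC4F- macrophages (CLEC4F- macs, n = 6) came from WD-fed mice at 24 weeks, so that neither population had an SD counterpart here. For the 5 samples titled and described as Western diet at 12 weeks, the separate diet field reads standard diet, and title and description were followed. No transgene or deletion was named for any of the groups, and the study counts the animals of this experiment as its n.

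Libraries held between 11568590 and 15163845 counts. The sort markers followed the labels in rank, with 1 exception in degree. *Clec4f* lay between 11160 and 15563 CPM in ResKCs of WD-fed mice at 24 weeks, between 7317 and 11605 CPM in moKCs and between 294 and 1537 CPM in 5 CLEC4F- mac samples, but reached 5482 CPM in CLEC4F- mac sample 4. *Timd4* lay between 546 and 884 CPM in ResKCs, against 2.85 to 30.3 CPM in moKCs and 3.42 to 14.6 CPM in CLEC4F- macs. The summed level of 5 KC markers was 12154 CPM in CLEC4F- mac sample 4 and 1280 to 5535 CPM in the other 5. moKC sample 1 stood apart in a different way, with a summed level of 10575 CPM for 10 immediate-early and heat-shock genes (1767 to 6158 CPM in the other 4). CLEC4F- mac sample 1 was alike in this, with 10852 CPM (2170 to 5800 CPM in the other 5), and also held the most B cell (172 against 28.8 to 62.4 CPM) and dendritic cell marker RNA (172 against 21.7 to 71.4 CPM) of its group. Results on the 3 populations are therefore also given without these 3 samples. In bulk RNA, fewer cells of a type and less RNA per cell cannot be told apart.

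The class of each cathepsin can be read at its catalytic residue. To show what separates the members, the coding stretch around the catalytic codon is given for 8 of the genes from GENCODE M21 (GRCm38, mm10), 5′ to 3′ on the coding strand, with that codon in capitals. The codon encodes serine in Ctsa, aspartate in Ctse and cysteine in the other 6.
Ctsa: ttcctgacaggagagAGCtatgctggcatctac
Ctsb: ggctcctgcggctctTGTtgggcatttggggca
Ctsc: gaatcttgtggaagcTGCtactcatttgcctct
Ctse: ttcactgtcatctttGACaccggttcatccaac
Ctsh: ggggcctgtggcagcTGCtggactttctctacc
Ctsl: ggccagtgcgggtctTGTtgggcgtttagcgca
Ctss: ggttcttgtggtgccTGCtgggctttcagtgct
Ctsz: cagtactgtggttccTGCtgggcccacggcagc

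The stretches of Ctsb and Ctsl were identical at 26 of 33 bases, while those of Ctsc and Ctsl shared 14 of 33. All of the stretches are coding. That of Ctse lies in exon 4 on the plus strand (chr1:131663356-131663388), that of Ctsl in exon 5 on the minus strand (chr13:64367060-64367092) and that of Ctss in exon 5 on the plus strand (chr3:95545333-95545365). The gene bodies span chr7:142375911-142388038 for *Ctsd*, chr3:95526786-95556403 for *Ctss*, chr19:4855130-4860918 for *Ctsf*, chr13:64359337-64370890 for *Ctsl* and chr1:131638306-131675505 for *Ctse*. *Ctsb* lies on chromosome 14, *Ctsc* on 7, *Ctsh* on 9, and *Ctsa* and *Ctsz* on 2.

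TFEB and its relatives, which raise the transcription of many lysosomal genes, bind E-box motifs with the core CACGTG, a sequence that reads the same on both strands. In the RefSeq promoter table (GRCm38.p6, 250 bases before the start of transcription), 7 of the 10 cathepsins had an entry, with 8 windows in all, and 4 of the 8 held a CACGTG. Of all 32851 RefSeq windows of that length, 6.02% held the motif. Each match is shown with its neighbouring bases, with the motif in capitals, to give the sequence of the 4 members that hold it.
Ctsa, chr2:164833749-164833772, plus strand: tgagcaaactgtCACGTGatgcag
Ctsd, chr7:142388055-142388077, minus strand: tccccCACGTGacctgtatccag
Ctsd, chr7:142387908-142387937, minus strand: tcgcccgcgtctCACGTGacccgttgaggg
Ctsf, chr19:4855074-4855103, plus strand: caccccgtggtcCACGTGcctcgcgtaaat
Ctsl, chr13:64370739-64370768, minus strand: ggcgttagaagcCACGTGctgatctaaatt

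The *Ctsa* match and the second *Ctsd* match lie inside an exon of the main GENCODE transcript, and the *Ctsl* match lies inside the annotated gene body. For *Ctsd* and *Ctsl* RefSeq and GENCODE thus place the starts differently. *Ctsa* has 2 RefSeq windows, and the first (chr2:164832622-164832871), just before the GENCODE start, held no match. Its match lies in the second window (chr2:164833523-164833772), which is inside the gene. The windows of *Ctsc*, *Ctss* and *Ctsz* did not hold these letters, and members that differed between groups are found both with the motif and without it. A match describes the sequence only, and factor binding was not measured here. *Ctsb*, *Ctse* and *Ctsh* had no entry.

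Together the 10 cathepsins took 3.27% ± 0.13 (SD, n = 7) of all counts in ResKCs of SD-fed mice at 12 weeks, 3.31% ± 0.17 (n = 5) on the WD at 12 weeks, 3.33% ± 0.20 (n = 6) on the SD at 24 weeks and 3.52% ± 0.17 (n = 6) on the WD at 24 weeks. The share was 3.16% ± 0.37 (n = 5) in moKCs and 2.90% ± 0.41 (n = 6) in CLEC4F- macs. *Ctsb*, an endopeptidase that also removes dipeptides from the carboxy terminus, was the largest contributor, with group means from 46.6% to 49.4% of the counts of the 10 genes. Its level ranged from 12511 ± 2329 CPM in CLEC4F- macs to 17394 ± 1359 CPM in ResKCs of WD-fed mice at 24 weeks.

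Per kilobase of the main transcript, the scale on which genes can be set beside each other, the level of *Ctsb* in ResKCs of WD-fed mice at 24 weeks was 3667 ± 286 CPM per kb. It was followed by *Ctss* (2309 ± 85.4 CPM per kb), *Ctsc* (2294 ± 217 CPM per kb) and *Ctsd* (1871 ± 254 CPM per kb). *Ctss* and *Ctsc* did not differ beyond their spread. Below them came *Ctsh* (869 CPM per kb), *Ctsz* (812 CPM per kb), *Ctsa* (469 CPM per kb), *Ctsl* (263 CPM per kb) and *Ctsf* (78.7 CPM per kb), and *Ctse* had no count. The order was the same in moKCs and in the other ResKC groups. In CLEC4F- macs *Ctss* stood first at 3148 ± 430 CPM per kb and *Ctsb* second at 2638 ± 491 CPM per kb, with overlapping spreads. *Ctss* made up 30.1% of the summed per-length level of the 10 genes in CLEC4F- macs, 23.2% in moKCs and 18.3% in ResKCs on the WD at 24 weeks, whereas *Ctsc* made up 12.8%, 19.4% and 18.2%. These places depended on the length used. With all annotated exons merged *Ctss* also stood above *Ctsb* in moKCs (2643 against 2400 CPM per kb). *Ctss* did so too in ResKCs of SD-fed mice at 12 weeks (2810 against 2678 CPM per kb) and 24 weeks (2883 against 2873 CPM per kb). On that length *Ctsd* stood above *Ctsc* in every group, as in ResKCs on the WD at 24 weeks (1692 against 985 CPM per kb). The place of *Ctsd* is also uncertain, because 808 bases of its main transcript are shared with *Gm49369* on the same strand, a gene listed at 0 counts in all samples, and how reads in shared stretches were counted is not given in the sources used here. *Ctsb* shares 774 bases with *Fdft1* on the opposite strand, which lay at 4.39 ± 1.8 to 11.6 ± 3.8 CPM in the groups at 24 weeks.

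**Figure D1:**
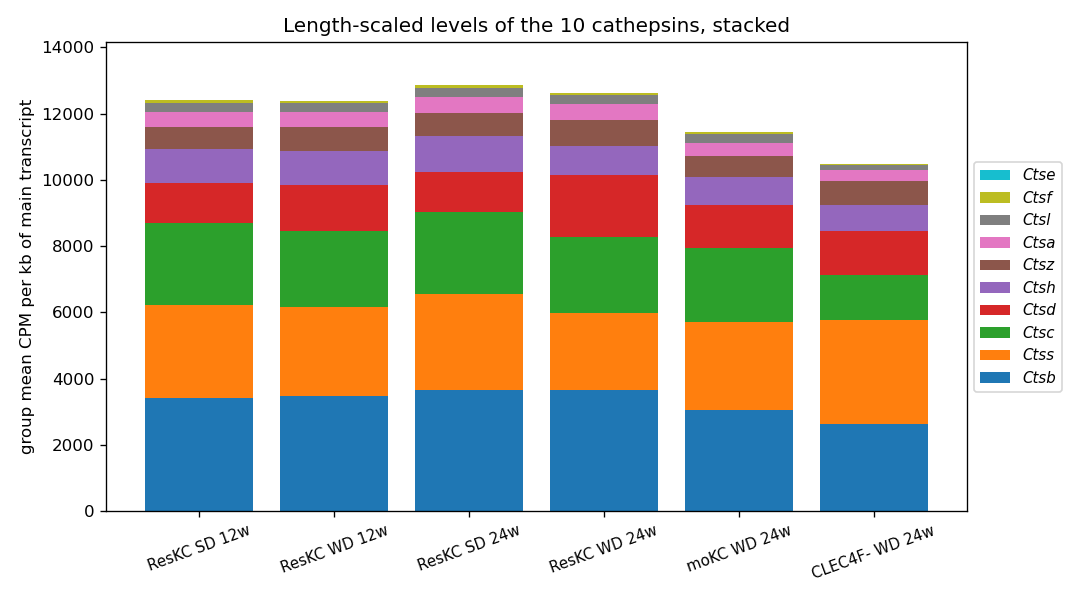
Stacked group means of the per-length level (CPM per kb of main transcript, y axis from 0) of the 10 cathepsins in each of the 6 groups, with one colour per gene. The Ctss segment is 30.1% of the bar in CLEC4F- macs and 18.3% in ResKCs of WD-fed mice at 24 weeks, while the Ctsb segment is 25.2% and 29.0%.

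To ask how the diet altered cathepsin expression in ResKCs, WD and SD samples were compared at each time. At 24 weeks 3 of the 10 cathepsins changed: *Ctsd* rose by 1.51-fold, while *Ctss* and *Ctsh* fell to 79.9% and 81.8% of their SD levels. The most abundant member, *Ctsb*, stayed within a narrow interval around its SD level. Over all genes tested, 8.71% passed the same limit (adjusted p under 0.05, edgeR quasi-likelihood test), 4.84% upwards and 3.87% downwards, so that a count of 3 in 10 is larger than the background but rests on few genes. Under scaling by library size alone the split over all genes moved from 650 higher and 519 lower to 1139 higher and 340 lower, and that of the cathepsins from 1 higher and 2 lower to 2 higher and 1 lower. None of the 10 cathepsins passed the stricter limit of an absolute log2 fold change over 1, which 3.35% of all genes did. The median log2 fold change of the 9 cathepsins other than *Ctse* was -0.07, against 0.0038 over all genes.

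*Ctsd*, the main aspartic protease of lysosomes, was measured at 2397, 2115, 2266, 3305, 3234 and 2443 CPM in the 6 SD samples at 24 weeks (median 2420 CPM). In the 6 WD samples it was measured at 4143, 3678, 3157, 4344, 3851 and 4699 CPM (median 3997 CPM). The lowest WD sample lay below the 2 highest SD samples, and the other 5 WD samples lay above all SD samples. The log2 fold change was 0.60 (SE 0.15, adjusted p = 0.0119).

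*Ctss*, a cysteine endopeptidase that stays active at neutral pH, ranged from 3537 to 4352 CPM on the SD (median 3836 CPM) and from 3014 to 3301 CPM on the WD (median 3090 CPM). The groups did not overlap. Its log2 fold change was -0.32 (SE 0.08, adjusted p = 0.00893). *Ctsh*, an aminopeptidase, ranged from 1567 to 1903 CPM on the SD (median 1729 CPM) and from 1297 to 1555 CPM on the WD (median 1363 CPM), again without overlap. Its log2 fold change was -0.29 (SE 0.08, adjusted p = 0.024).

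The ratio of *Ctsd* to *Ctss* shows both movements at once. It was chosen after the values were seen and is given as a description. The ratio of CPM was 0.667 ± 0.084 (0.558 to 0.760) in the 6 SD samples at 24 weeks and 1.27 ± 0.15 (1.05 to 1.43) in the 6 WD samples. In the other groups its mean lay between 0.660 ± 0.13 in CLEC4F- macs and 0.801 ± 0.070 in ResKCs on the WD at 12 weeks. The highest value outside the WD group at 24 weeks was 0.933, in moKCs. *Ctsd* and *Ctsb* moved together within the groups (Pearson's r = 0.87 for deviations from the group means, 35 samples that share libraries and scaling), but the ratio of *Ctsd* to *Ctsb* was 0.150 ± 0.013 on the SD and 0.228 ± 0.021 on the WD at 24 weeks.

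**Figure D2:**
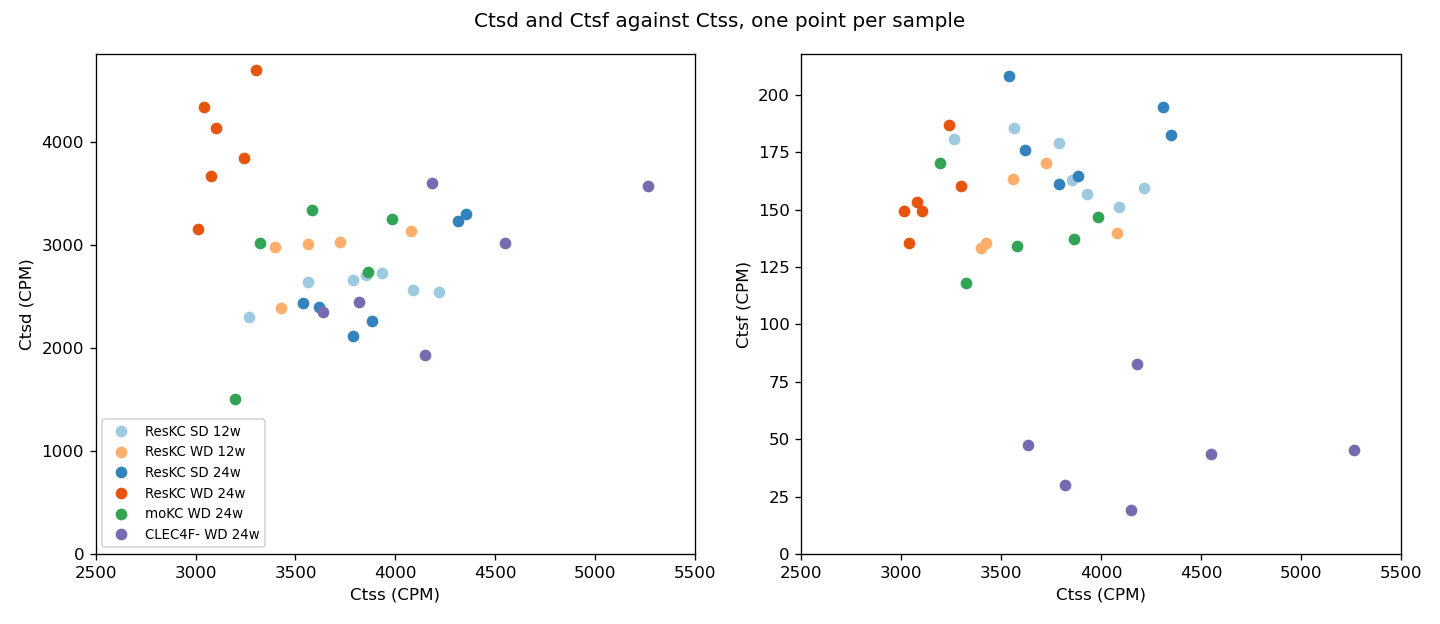
Level of Ctsd (left) and Ctsf (right) against the level of Ctss (x axis, which does not start at 0), all in CPM, with one point per sample and colours for the 6 groups. ResKCs of WD-fed mice at 24 weeks hold low Ctss (3014 to 3301 CPM) with high Ctsd (3157 to 4699 CPM), and CLEC4F- macs lie apart on the right panel with 19.4 to 82.8 CPM of Ctsf.

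The other 7 cathepsins did not pass the test at 24 weeks. For *Ctsb* the log2 fold change was 0.00066 with a 95% interval from -0.20 to 0.20, and for *Ctsa*, which protects beta-galactosidase and neuraminidase in lysosomes, it was -0.00034 (-0.15 to 0.15). *Ctsc*, which removes dipeptides from the amino terminus and activates granule serine proteases, was at -0.10 (-0.31 to 0.10) and *Ctsl*, a potent endopeptidase, at -0.07 (-0.31 to 0.18). *Ctsz*, a carboxypeptidase, was at 0.19 (0.01 to 0.36, adjusted p = 0.202). *Ctsf*, an endopeptidase able to process the invariant chain in macrophages, was at -0.22 (-0.56 to 0.12), with 5 of 6 WD samples below all SD samples (135 to 187 CPM against 161 to 208 CPM). *Ctse* held 8 counts over 3 of the 6 SD libraries and 0 counts in all 6 WD libraries.

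Other measurements moved with these diet differences. The summed level of 5 macrophage markers did not overlap, at 27861 to 32449 CPM on the SD and 19664 to 26814 CPM on the WD at 24 weeks, with 2 of the 5 lower (*Lyz2* -0.66, adjusted p = 0.0129, and *C1qa* -0.36, adjusted p = 0.038). The summed level of the immediate-early and heat-shock genes was 2583 to 13808 CPM in SD ResKCs at 24 weeks and 1049 to 4939 CPM in WD ResKCs, with 7 of the 10 genes lower on the WD. With the mean log2 CPM of these 10 genes as a covariate 1 cathepsin was called (*Ctsh*, adjusted p = 0.0349). In that fit *Ctsd* was at 0.47 (adjusted p = 0.137) and *Ctss* at -0.31 (adjusted p = 0.0549). The summed level of 10 hepatocyte markers was 474 to 1383 CPM on the SD and 1018 to 3281 CPM on the WD. With the mean log2 CPM of these markers as a covariate *Ctsd* (0.59) and *Ctss* (-0.31) stayed called and *Ctsh* did not (-0.27, adjusted p = 0.0519). The alignment columns carried 2 naming schemes, whose meaning is not stated in the sources used here, and all 6 SD samples but only 3 of the 6 WD samples had the first. Within the first scheme the log2 difference was 0.49 for *Ctsd*, -0.35 for *Ctss* and -0.37 for *Ctsh*, and with the scheme as a covariate *Ctsd* was at 0.43 (adjusted p = 0.0512). The part of these measurements in the differences was not tested beyond these values. The call of *Ctsh* was also lost without SD sample 4, WD sample 1 or WD sample 3 (adjusted p = 0.0626, 0.0519 and 0.0580).

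At 12 weeks none of the 10 cathepsins passed the test by edgeR or DESeq2, and 1 of 10 had an unadjusted p under 0.05. The 10 include *Ctse*, with 1 count in the SD and 9 counts in the WD group, and its p is not read as a test. Over all genes 0.0373% passed by edgeR, and 1172 of 13421 had an unadjusted p under 0.05. *Ctsd* was measured at 3010, 2392, 2985, 3143 and 3033 CPM in the 5 WD samples and at 2299 to 2727 CPM (median 2644 CPM) in the 7 SD samples. Of the WD samples 4 lay above all SD samples, and sample 2 lay among them. The log2 fold change was 0.17 (SE 0.15, adjusted p = 0.79, 95% interval -0.13 to 0.47). *Ctss* was at -0.07 (-0.22 to 0.09) and *Ctsh* at 0.04 (-0.13 to 0.20). All 5 WD samples and 3 of the 7 SD samples at this time had the first naming scheme.

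Whether the diet effect itself differed between 24 and 12 weeks was tested as an interaction. None of the 10 passed by edgeR or DESeq2, and 0.283% of all genes passed by edgeR. An unadjusted p under 0.05 was held by 3 of the 10 and by 1886 of all 13421 genes. *Ctse* is among the 10 here too, and its p is not read as a test. The difference of the log2 fold changes was 0.43 for *Ctsd* (SE 0.22, adjusted p = 0.363), -0.32 for *Ctsh* (SE 0.12, adjusted p = 0.191) and -0.25 for *Ctss* (SE 0.11, adjusted p = 0.292). A change that is called at 24 weeks and not at 12 weeks is thus not shown to differ between the times. With the naming scheme as a covariate the difference for *Ctsh* was -0.49 (adjusted p = 0.0465).

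In SD-fed mice the time on diet made no difference that could be called. Of the 10 cathepsins 0 passed between 24 and 12 weeks, as did 0% of all genes by edgeR. An unadjusted p under 0.05 was held by 1 of the 10 and by 1208 of all 13421 genes. The 10 again include *Ctse*, with 8 counts at 24 weeks and 1 count at 12 weeks, whose p is not read as a test. DESeq2 called 22 genes without a cathepsin. The log2 fold changes of the 9 members other than *Ctse* were at most 0.11.

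**Figure D3:**
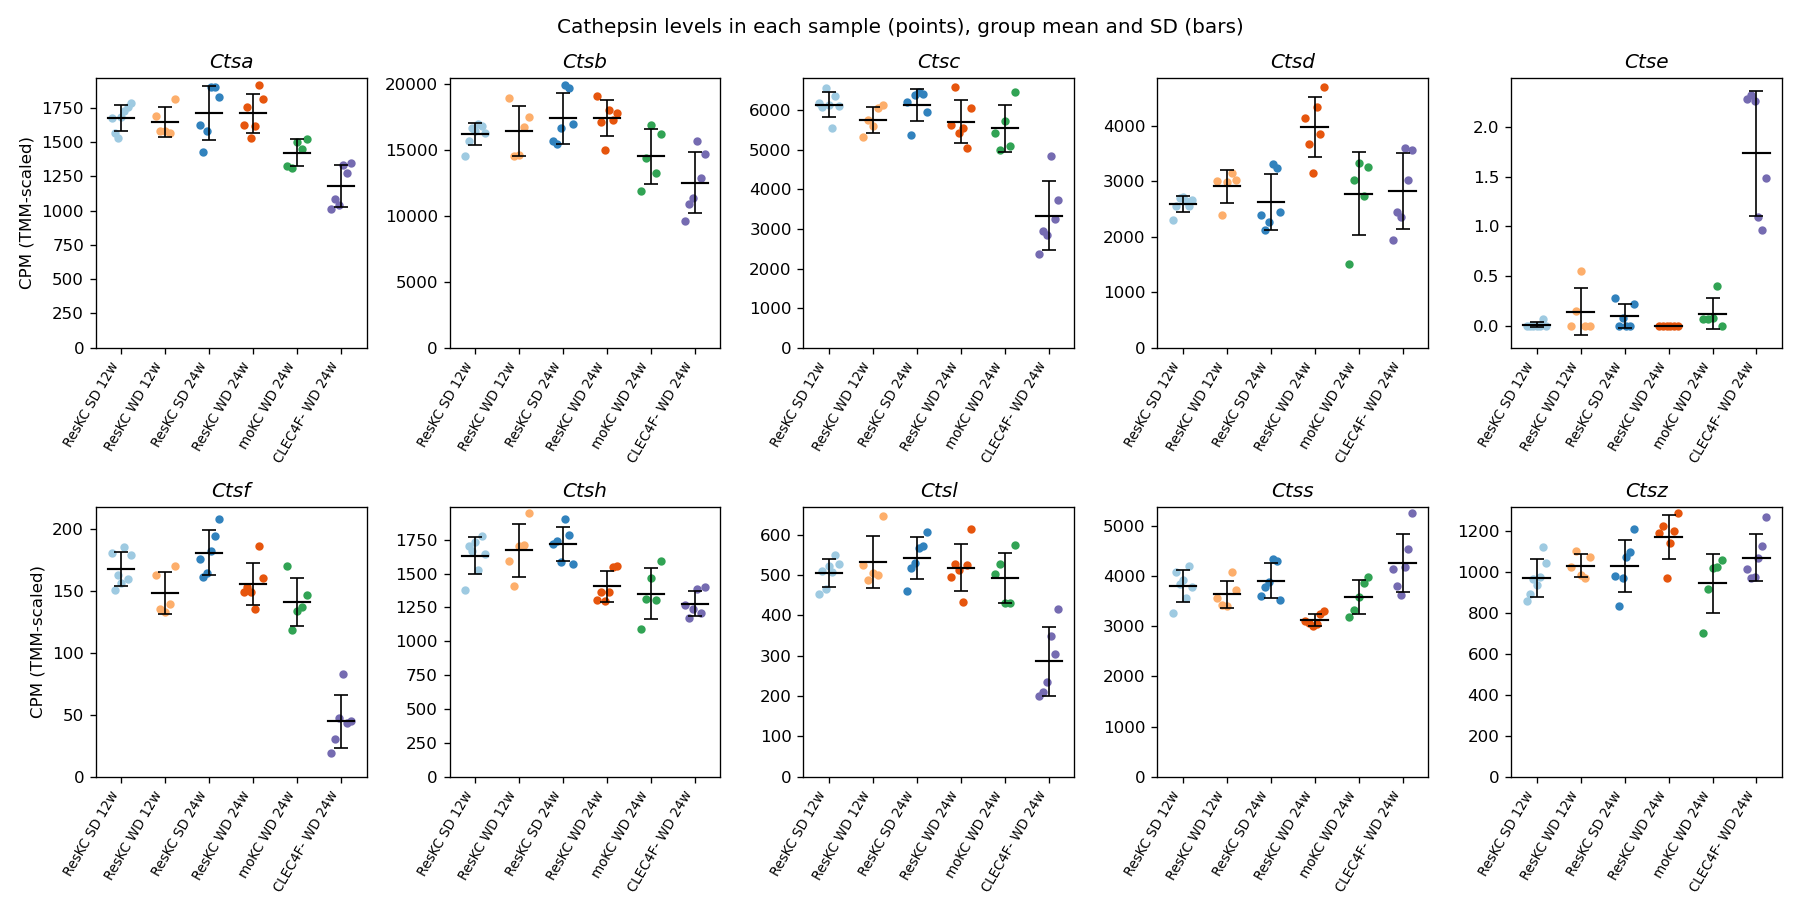
Level of each of the 10 cathepsins in every sample (TMM-scaled CPM, linear axes), with one point per sample in the 6 groups and black bars for the group mean and SD. Ctsd is highest in ResKCs of WD-fed mice at 24 weeks (3979 ± 541 CPM), and Ctsf falls to 44.8 ± 21.5 CPM in CLEC4F- macs.

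To examine how the cathepsins differed between the 3 macrophage populations of WD-fed mice at 24 weeks, ResKCs and moKCs were each set against CLEC4F- macs and against each other. The 3 comparisons share their samples in pairs. ResKCs and CLEC4F- macs differed at 7 of the 9 cathepsins other than *Ctse*: *Ctsf*, *Ctsl*, *Ctsc*, *Ctsa*, *Ctsd* and *Ctsb* were higher in ResKCs, and *Ctss* was higher in CLEC4F- macs. Over all genes 33% passed, 17% higher and 16.1% lower in ResKCs. Scaling by library size alone moved the split over all genes from 2278 higher and 2155 lower to 1631 higher and 3257 lower, with a shift of -0.12 in the median log2 fold change, and left the 6 and 1 of the cathepsins. *Ctsf* passed the limit of log2 1, as did 10.4% of all genes. The median log2 fold change of the 9 was 0.50, against -0.02 over all genes. CLEC4F- mac sample 1 held the lowest *Ctsa*, *Ctsb*, *Ctsc*, *Ctsd*, *Ctsf* and *Ctsl* of its group. Without it the same 7 were called, with *Ctsd* at 0.40 (adjusted p = 0.0474) and *Ctsf* at 1.63, and they were also called without CLEC4F- mac sample 4.

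*Ctsf* showed the widest difference among the members other than *Ctse*. It was measured at 19.4, 30.1, 47.6, 82.8, 43.6 and 45.3 CPM in CLEC4F- macs (median 44.4 CPM) and at 135 to 187 CPM (median 151 CPM) in ResKCs. In moKCs it was measured at 170, 118, 134, 137 and 147 CPM. Both KC populations lay above all CLEC4F- macs, and the CLEC4F- sample with the most *Ctsf* was sample 4, the same that held the most *Clec4f*. The log2 fold change was 1.80 in ResKCs (SE 0.18, 3.48-fold, adjusted p = 1.71e-09) and 2.07 without that sample.

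*Ctsl* ranged from 199 to 417 CPM in CLEC4F- macs (median 270 CPM) and from 434 to 615 CPM in ResKCs (median 518 CPM), with a log2 fold change of 0.86 (SE 0.13, adjusted p = 2.02e-06). *Ctsc* was measured at 2356, 2944, 2836, 4852, 3265 and 3725 CPM in CLEC4F- macs and at 5054 to 6597 CPM in ResKCs (median 5584 CPM), with a log2 fold change of 0.78 (SE 0.10, adjusted p = 4.06e-07). *Ctsa* was measured at 1015, 1085, 1039, 1333, 1278 and 1347 CPM in CLEC4F- macs and at 1531 to 1920 CPM in ResKCs (median 1690 CPM), with a log2 fold change of 0.53 (SE 0.08, adjusted p = 2.07e-06). For each of these 3 genes all ResKC samples lay above all CLEC4F- macs, and the share of all genes that separate in this way was not counted. *Ctsa* shares 495 exon bases with *Pltp* on the opposite strand, and *Pltp* was also higher in ResKCs (2141 ± 261 against 1132 ± 281 CPM, log2 fold change 0.92, adjusted p = 6.20e-06). Whether the counting used strand is not given in the sources used here, so that reads of the shared stretch cannot be told apart.

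*Ctsb* and *Ctsd* overlapped between the populations at their edges. *Ctsb* ranged from 9616 to 15669 CPM in CLEC4F- macs (median 12120 CPM) and from 15021 to 19116 CPM in ResKCs (median 17536 CPM), with a log2 fold change of 0.48 (SE 0.10, adjusted p = 0.000338). *Ctsd* was measured at 1936, 2451, 2353, 3601, 3019 and 3572 CPM in CLEC4F- macs, and its log2 fold change against the WD ResKCs given above was 0.50 (SE 0.15, adjusted p = 0.0104). In both cases 5 of 6 ResKC samples lay above all CLEC4F- macs. *Ctsh* (0.14, 95% interval -0.02 to 0.30) and *Ctsz* (0.13, -0.05 to 0.31) did not pass.

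*Ctss* went the opposite way. It ranged from 3636 to 5266 CPM in CLEC4F- macs (median 4165 CPM), above all 6 ResKC samples (3014 to 3301 CPM), with a log2 fold change of -0.45 (SE 0.08, adjusted p = 2.76e-05). The ratio of *Ctss* to *Ctsl*, both endopeptidases of the invariant chain, averaged 15.7 ± 3.4 (12 to 20.9) in the CLEC4F- samples, 6.09 ± 0.55 in the ResKCs and 7.38 ± 1.2 in the moKCs. It was chosen after the values were seen and has no test.

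*Ctse*, an endosomal aspartic protease, gave 33, 36, 35, 15, 12 and 21 counts in the 6 CLEC4F- mac libraries, or 0.967 to 2.33 CPM. It gave 0 counts in all 6 ResKC libraries on the WD at 24 weeks and 8 counts over 4 of the 5 moKC libraries. Pooled over libraries the level in CLEC4F- macs was at least 49.8-fold higher than in these ResKCs, taking 3 counts over the ResKC group as the floor, and 16.3-fold higher than in moKCs. The other ResKC groups held 1 count (SD, 12 weeks), 9 counts over 2 libraries (WD, 12 weeks) and 8 counts over 3 libraries (SD, 24 weeks). Even in CLEC4F- macs *Ctse* was the lowest of the 10.

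moKCs and CLEC4F- macs differed at 5 of the 9 cathepsins other than *Ctse*, 4 higher and 1 lower in moKCs, where 16.4% of all genes passed, 9.34% higher and 7.09% lower. With library size alone these cathepsins split 3 and 2, and all genes 940 higher and 1477 lower in place of 1253 and 951. *Ctsf* passed the limit of log2 1, as did 5.05% of all genes. *Ctsf* was higher in moKCs by a log2 fold change of 1.66 (SE 0.18, adjusted p = 1.93e-07), *Ctsl* by 0.79 (SE 0.13, adjusted p = 4.44e-05) and *Ctsc* by 0.74 (SE 0.11, adjusted p = 8.72e-06). The 5 moKC samples held 502, 527, 431, 430 and 575 CPM of *Ctsl* and 5424, 5002, 5728, 5103 and 6453 CPM of *Ctsc*, in each case above all CLEC4F- macs.

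The differences of *Ctsa* and *Ctss* were smaller. *Ctsa* was measured at 1328, 1313, 1499, 1449 and 1524 CPM in moKCs, with 3 of the 5 above all CLEC4F- macs, and a log2 fold change of 0.27 (SE 0.08, adjusted p = 0.0217). *Ctss* was measured at 3195, 3324, 3581, 3864 and 3985 CPM, with 3 of the 5 below all CLEC4F- macs, and a log2 fold change of -0.25 (SE 0.08, adjusted p = 0.0329). Both calls were lost when the 2 groups were fitted alone (adjusted p = 0.110 and 0.143). That of *Ctss* was also lost without moKC sample 1 (adjusted p = 0.112), and that of *Ctsa* without CLEC4F- mac sample 1 (adjusted p = 0.0996). *Ctsb* was at 0.22 (95% interval 0.01 to 0.42, adjusted p = 0.181) and was called without CLEC4F- mac sample 4 (adjusted p = 0.0431). *Ctsd* was at -0.02 (-0.33 to 0.29), *Ctsh* at 0.08 (-0.09 to 0.25) and *Ctsz* at -0.18 (-0.37 to 0.01).

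ResKCs and moKCs did not differ at any of the 10 cathepsins by edgeR, where 2.99% of all genes passed. Of the 10, 6 had an unadjusted p under 0.05, as did 2135 of all 13421 genes. These 10 include *Ctse*, whose p is not read as a test. DESeq2 called 576 of all genes, among them 3 cathepsins, all higher in ResKCs (*Ctsa*, *Ctsd* and *Ctsz*). The same 3 were called by edgeR with the naming scheme as a covariate (adjusted p = 0.0124, 0.0166 and 0.0152). For *Ctsd*, moKC sample 1 held 1507 CPM and the other 4 held 3027, 3340, 2745 and 3259 CPM, against 3157 to 4699 CPM in ResKCs. The log2 fold change was 0.52 (SE 0.16, adjusted p = 0.0685) and 0.36 (adjusted p = 0.155) without moKC sample 1. For *Ctsa* all 6 ResKC samples lay above all moKCs (0.27, adjusted p = 0.0717), and for *Ctsz* 5 of 6 did (703 to 1059 CPM in moKCs against 974 to 1288 CPM, 0.31, adjusted p = 0.0735). The intervals of *Ctsc* (-0.17 to 0.26), *Ctsf* (-0.21 to 0.50), *Ctsh* (-0.11 to 0.22) and *Ctsl* (-0.19 to 0.33) included 0.

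**Figure D4:**
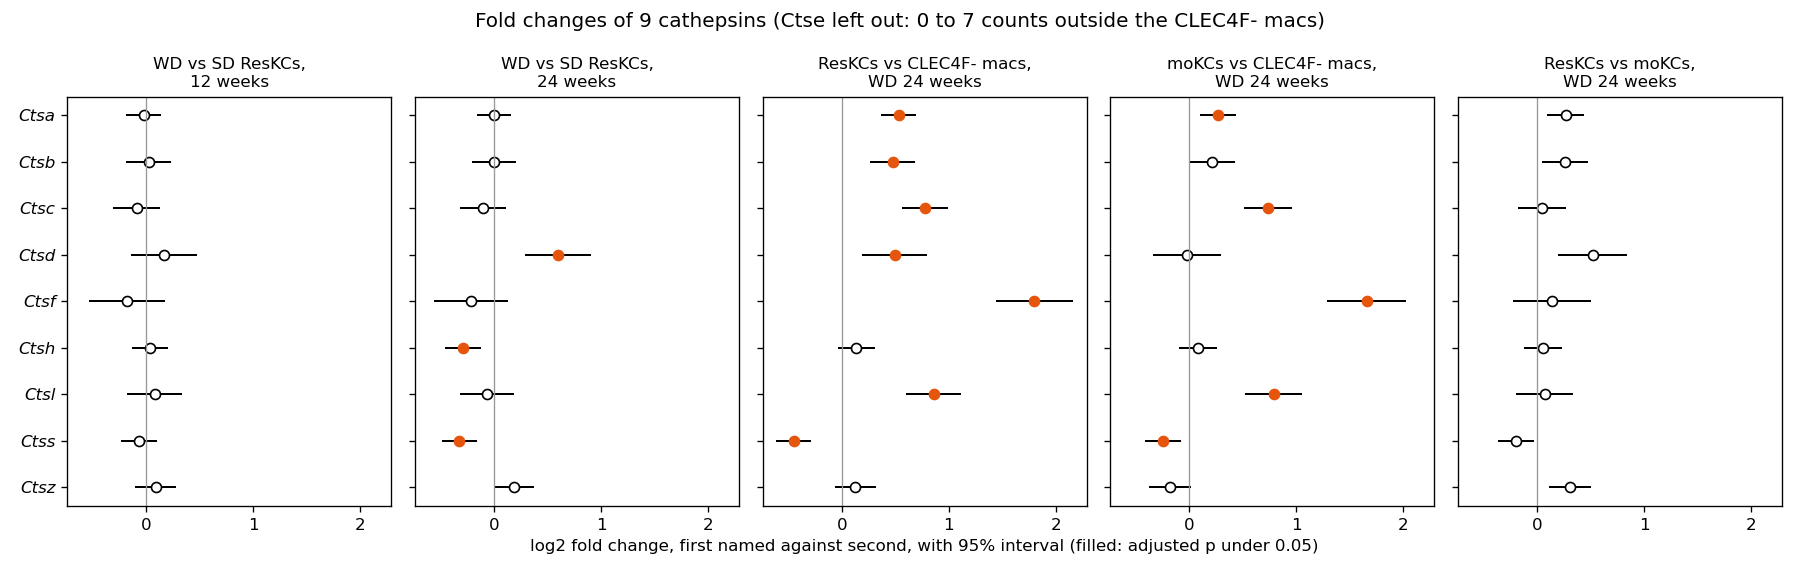
Log2 fold change with its 95% interval for 9 cathepsins in 5 comparisons, with filled points for an adjusted p under 0.05; Ctse is left out for its low counts. Against CLEC4F- macs Ctsf stands at 1.80 in ResKCs and 1.66 in moKCs, while no point is filled at 12 weeks or between ResKCs and moKCs.

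The KC markers and those of other cells moved with the contrast to CLEC4F- macs. The 5 KC markers summed to 1280 to 12154 CPM in CLEC4F- macs, against 24973 to 32130 CPM in ResKCs and 16919 to 24519 CPM in moKCs. Monocyte markers summed to 363 to 1437 CPM in CLEC4F- macs and 80.3 to 150 CPM in ResKCs, and dendritic cell markers to 21.7 to 172 CPM and 10.1 to 21.2 CPM. B cell markers summed to 28.8 to 172 CPM and 10.3 to 28.5 CPM, T and NK cell markers to 4.52 to 17.5 CPM and 1.40 to 3.78 CPM, and stellate cell markers to 68.5 to 248 CPM and 32.1 to 96.9 CPM. Some genes of these marker lists may have passed the filter only through the CLEC4F- samples, so that calls for them are not given. The summed endothelial markers went the other way, with 363 to 605 CPM in CLEC4F- macs and 715 to 1112 CPM in ResKCs. The genes of that list were not alike, with log2 fold changes in ResKCs from -0.41 to 2.30 and a median of -0.20. The summed macrophage markers overlapped, with 18418 to 23208 CPM and 19664 to 26814 CPM. Within that sum the genes went in both directions, with log2 fold changes in ResKCs from -0.85 to 1.23. The part of these cells or of remaining KCs in the cathepsin differences was not tested. Each naming scheme held 3 ResKC and 3 CLEC4F- mac samples and gave the same signs, with *Ctsf* at 2.31 in the first scheme and 1.54 in the second, *Ctsl* at 1.26 and 0.55, *Ctsc* at 1.12 and 0.51 and *Ctss* at -0.33 and -0.54 in ResKCs relative to CLEC4F- macs. CLEC4F- mac sample 4 was in the second scheme.

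Over the 35 samples the 3 genes with log2 levels most like *Ctsf* were *Ephx1* (Pearson's r = 0.98), the KC marker *Clec4f* (0.98) and the resident macrophage gene *Folr2* (0.97). For *Ctsl* they were *Cfp* (0.92), *Cd5l* (0.92) and *C1qc* (0.91). None are given for *Ctse*, which passed the filter only through the CLEC4F- samples and held few or no counts elsewhere. Among the members *Ctsc* and *Ctsf* (0.94), *Ctsf* and *Ctsl* (0.91) and *Ctsc* and *Ctsl* (0.91) followed each other most closely, while *Ctss* and *Ctsf* were at -0.40. These correlations describe samples that share groups and scaling, and they were lower within the groups for the pairs named as closest. There *Ctsc* and *Ctsf* were at 0.68, *Ctsf* and *Ctsl* at 0.62 and *Ctsc* and *Ctsl* at 0.64. These lay below *Ctsb* and *Ctsd* (0.87), and *Ctss* and *Ctsf* were at 0.04.

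Other genes of the cathepsin family were few. Of 13 further cathepsin symbols, *Ctsk*, *Ctso* and *Ctsw* passed the filter, 8 had 0 counts in all 35 samples, *Ctsg* at most 1 count and *Ctsj* at most 13. *Ctso* was lower on the WD at 24 weeks (139 ± 8.2 against 185 ± 19 CPM, log2 fold change -0.42, SE 0.08, adjusted p = 0.00155), with all 6 WD samples below all SD samples. It was higher in ResKCs than in CLEC4F- macs (95.9 ± 14 CPM) by 0.54 (adjusted p = 3.50e-06) and in moKCs (127 ± 9.3 CPM) by 0.40 (adjusted p = 0.000844). *Ctsk*, best known from osteoclasts, was at 6.35 ± 3.9 CPM in CLEC4F- macs, against 0.316 ± 0.31 CPM in ResKCs and 0.474 ± 0.30 CPM in moKCs of WD-fed mice at 24 weeks. It passed the filter only through the CLEC4F- samples, and its difference has no test here.

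The counts in this and the following lists stand beside these shares of all genes. For the diet at 24 weeks 8.71% passed, and between ResKCs and moKCs 2.99%. Against CLEC4F- macs 33% passed in ResKCs (17% higher, 16.1% lower) and 16.4% in moKCs (9.34% higher, 7.09% lower). Of 6 other lysosomal peptidases, 1 fell on the WD at 24 weeks, the carboxypeptidase *Scpep1* (-0.24, adjusted p = 0.00836). In ResKCs 3 exceeded their CLEC4F- mac level and 1 lay below it. *Lgmn*, the asparaginyl endopeptidase that processes several cathepsins, had a level of 3163 ± 190 CPM in ResKCs, against 1963 ± 447 CPM in the CLEC4F- group (0.69, adjusted p = 2.31e-06), and the tripeptidyl peptidase *Tpp1* was at 0.63 (adjusted p = 1.42e-06). *Napsa*, another aspartic protease, had 2.03 ± 0.87 CPM in ResKCs, against 56.1 ± 35 CPM in the CLEC4F- group (-4.78, adjusted p = 2.41e-08). Against CLEC4F- macs moKCs were higher in *Lgmn* (0.52) and *Tpp1* (0.37) and lower in *Napsa* (-3.47).

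Of 13 listed inhibitors of cysteine cathepsins, 5 were tested. Cystatin C, *Cst3*, a secreted inhibitor, fell on the WD at 24 weeks (-0.24, adjusted p = 0.0422), from 1513 ± 121 to 1282 ± 79.5 CPM. The cytosolic *Cstb* was lower in ResKCs (-0.58, adjusted p = 0.000202) and in moKCs (-0.51, adjusted p = 0.00401) than in CLEC4F- macs. *Cst7*, the intracellular cystatin F that acts on Ctsc, had 2.27 ± 1.8 CPM in CLEC4F- macs and 0.233 ± 0.36 CPM in ResKCs of WD-fed mice at 24 weeks, and it too passed the filter only through the CLEC4F- samples.

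Among 10 sorting and partner proteins, *Sort1*, a sorting receptor of lysosomal enzymes (1.70, adjusted p = 0.0229), and *Psap*, the precursor of the saposins that Ctsd processes (0.36, adjusted p = 0.0338), rose on the WD at 24 weeks. Relative to CLEC4F- macs 5 were higher in ResKCs, led by *Grn* (1.03, adjusted p = 8.05e-08) and *Glb1* (0.89, adjusted p = 5.62e-07), and 4 were lower, led by *Sort1* (-2.62, adjusted p = 2.55e-05) and *Gnptab* (-0.58, adjusted p = 0.000303). In moKCs 4 were higher and 3 lower. *Gnptg* was the 1 that differed between ResKCs and moKCs (0.32, adjusted p = 0.039). Of 4 regulators of lysosomal genes, none passed for the diet at 24 weeks by edgeR. An unadjusted p under 0.05 was held by 1 of the 4 and by 3331 of all 13421 genes. *Tfec* (0.59, adjusted p = 0.00373) and *Tfe3* (0.40, adjusted p = 0.000108) were higher in ResKCs than in CLEC4F- macs, and *Tfeb* was lower (-0.41, adjusted p = 0.000298).

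Of 8 genes of the MHC class II pathway, in which Ctss acts, 5 fell on the WD at 24 weeks, led by *H2-Ab1* (-1.15, adjusted p = 0.00647) and *H2-Aa* (-1.08, adjusted p = 0.00462). Their summed level was 14916 to 29909 CPM on the SD and 8377 to 17079 CPM on the WD. In ResKCs 7 were lower than in CLEC4F- macs (*H2-Eb1* -2.19, *H2-Ab1* -2.08) and 7 lower than in moKCs (*H2-Eb1* -1.47, *H2-Ab1* -1.45), while the lysosomal thiol reductase *Ifi30* was higher in both (0.88 and 0.41). Of 17 other lysosomal hydrolases, 2 rose on the WD at 24 weeks (*Gla* 1.07 and *Gusb* 0.49). Against CLEC4F- macs 10 were higher in ResKCs (such as *Man2b1*, at 0.95) and 2 were lower (such as *Gla*, at -0.71). The shares of all genes in that contrast were 17% higher and 16.1% lower. At 12 weeks no gene of these lists passed by edgeR, with 1 inhibitor, 1 regulator and 1 hydrolase at an unadjusted p under 0.05. That limit was met by 1172 of all 13421 genes.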

How the data were processed

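Libraries (TruSeq RNA kit) were made from sorted macrophages and sequenced as single reads. Per the labels and the study's methods, the authors aligned reads to mm10 with HISAT2 2.2.0 and deposited whole-number counts per gene symbol from featureCounts 2.0.0, with SAMtools 1.10 and FastQC 0.11.9 also named. The annotation, strand setting and treatment of multiply mapped reads are not given in the sources used here. Of 54735 symbols, 54106 were found in GENCODE M21, which gave positions and lengths.

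Genes over 1 CPM in at least 5 of the 35 samples were kept (13421). Counts were scaled by TMM and fitted with 1 mean per group over all samples by the edgeR 4.0.16 quasi-likelihood test in R 4.3.3, with Benjamini-Hochberg adjustment over all genes kept. Calls were made at an adjusted p under 0.05, and calls past 1 on the log2 scale, in either direction, were counted beside them. The SE is the absolute log2 fold change over the root of F, and intervals are 95%. Statements that groups did or did not overlap describe the genes named, and the share over all genes was not counted. CPM are TMM-scaled, and log2 CPM for correlations had a prior count of 2. Ctse levels are also given as counts with a floor of 3 counts per group. limma 3.58.1 (voom), DESeq2 1.42.0, library size alone, no filter, the compared groups alone, a replicate block, covariates for hepatocyte markers, immediate-early genes and naming scheme, and each sample left out in turn were alternatives.

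Counting error at totals of 11568590 to 15163845 counts is small beside the spread between samples for 9 cathepsins and large for Ctse. The study gives its n as animals, while the labels do not tie a sample to an animal, so p-values measure the spread between these samples. Ctse, Ctsk and Cst7 passed the filter only through the CLEC4F- macs, so that their calls against these samples are not read as tests. The members and lists were chosen with earlier results of these data known. All 10 cathepsins are named. From other lists up to 2 called genes per direction and comparison with the largest absolute log2 fold change are named. From the lists of other cathepsins, peptidases and inhibitors any gene whose level is stated is named. For Ctsf and Ctsl the 3 genes with the highest Pearson's r are named. Promoter windows are from RefSeq (GRCm38.p6). Some items that these rules would name are not reported here.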

Additional observations from a re-analysis of the deposited data

Results flagged for a closer look

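Single samples that stood apart within their group were looked for in 60 combinations of cathepsin and group by Dixon's test, of which chance alone marks about 1 in 20, and 5 were found. *Ctsd* gave 3 of the 5. It was low in ResKC sample 1 on the SD at 12 weeks (2299 CPM, with 2548 to 2727 CPM in the other samples), in ResKC sample 2 on the WD at 12 weeks (2392 CPM, with 2985 to 3143 CPM in the others) and in moKC sample 1 (1507 CPM, with 2745 to 3340 CPM in the others). *Ctsl* was high in ResKC sample 5 on the WD at 12 weeks (645 CPM, with 488 to 524 CPM in the others). *Ctse* was at 0.0710 CPM, which is 1 count, in ResKC sample 6 on the SD at 12 weeks, where the others held none. With all others at 0 any count is marked, so that the rate of 1 in 20 does not hold for *Ctse*.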

How the results depend on the processing

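The counts here are over all 10 cathepsins unless *Ctse* is said to be left out. Under every alternative *Ctse* was among those called lower in ResKCs and moKCs than in CLEC4F- macs. Its filter rests on the latter, so that its call is not read as a test. Without *Ctse* the main fit called 7 for ResKCs and 5 for moKCs against CLEC4F- macs. No cathepsin called in the report changed its direction under any alternative run. With an absolute log2 fold change over 1 required and *Ctse* left out, 0 cathepsins were called for the diet at 24 weeks. Against CLEC4F- macs 1 was called in ResKCs and 1 in moKCs. For the diet at 24 weeks the immediate-early covariate left 1 of 3. The interaction gave 1 with the naming scheme as a covariate. ResKCs against moKCs gave 3 with DESeq2, 1 with limma-voom and 3 with the naming scheme. Leaving out 1 sample each gave 2 to 3 (diet, 24 weeks), 8 to 8 (ResKCs against CLEC4F- macs), 0 to 2 (ResKCs against moKCs, 2 without ResKC sample 3) and 4 to 7 (moKCs against CLEC4F- macs). Leaving out CLEC4F- mac sample 4 and moKC sample 1 together, chosen after seeing the data, gave 8, 0 and 6 for the 3 population comparisons, where in the last *Ctss* was lost (adjusted p = 0.104) and *Ctsb* gained (adjusted p = 0.0145). No comparison had every same-numbered pair of samples correlated over 0.1 in its deviations, so the numbers were not taken to pair them. ResKCs and CLEC4F- macs came closest, with 4 of 6 pairs over 0.1 and all 6 positive (mean 0.12). The replicate block gave 3 cathepsins for the diet at 24 weeks, 8 for ResKCs and 4 for moKCs against CLEC4F- macs, where *Ctsa* and *Ctss* were lost. Over all genes, calls for the diet at 24 weeks went from 1169 to 469 with the immediate-early covariate, and those at 12 weeks from 5 to 44 with DESeq2 and to 0 to 3 under other settings. The interaction went from 38 to 192 with DESeq2, to 64 to 87 with the covariates, to 11 with no filter, to 24 with the compared groups alone and to 4 with the replicate block. The block took ResKCs against moKCs from 401 to 120 and moKCs against CLEC4F- macs from 2204 to 667, and the 2 samples left out together gave 621 in the former. Depth limits *Ctse*, with 0 to 7 counts per library outside CLEC4F- macs.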
